A study of Mus musculus with 2 samples.

Results

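The 10 genes Igf1, Vegfa, Pdgfa, Pdgfb, Tgfb1, Gdf15, Hbegf, Areg, Osm and Lif encode growth factors and repair cytokines that phagocytes can release after tissue damage. They were taken by symbol from the 31053 genes listed, and all 10 were present. Their transcripts were counted in single cells from the ischemic brain of Foxp3Egfp mice aged 6-8 weeks, which carry a green fluorescent reporter at Foxp3, the regulatory T cell factor. The brains were flushed with PBS, and a sorter collected CD45+CD11b+CD3-F4/80+ cells, that is, leukocytes with myeloid and macrophage surface proteins and without the T cell protein CD3. Both libraries, here replicate 1 and replicate 2, belong to the same group, the cDNA of stroke mice was pooled before sequencing, and there is no uninjured group to set them against. All comparisons are therefore between kinds of cells within the same libraries. Whether each library came from its own animals is not stated. The p-values measure how far differences between kinds of cells varied between these libraries, a spread that may be technical. A shift shared by all cells of a library is taken out beforehand, as a block.

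The factors fall into families by the receptors they bind. IGF1 acts on a receptor tyrosine kinase and supports neurons and myelinating cells, and activated microglia and macrophages are a known source of it. VEGFA drives vessel growth and leakiness and is induced by low oxygen. PDGF-A acts on oligodendrocyte precursors and PDGF-B on the pericytes that wrap vessels. TGF-β1 is released in a latent form, has to be freed by integrins or thrombospondin-1, and maintains the identity of microglia, while GDF15 is a distant relative that stressed cells secrete. HB-EGF and amphiregulin (Areg) are membrane-bound ligands of the EGF receptor that are shed by proteases. Oncostatin M (Osm) and LIF are cytokines of the IL-6 family that signal through the shared subunit gp130.

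The libraries held 101893367 and 62850768 transcript counts (UMIs, unique molecular identifiers that count each captured molecule once), in replicate 1 and replicate 2. Barcodes with at least 1000 UMIs, 500 genes and at most 10% mitochondrial UMIs numbered 15050 and 7910, with medians of 5356 and 5891.5 UMIs, and 31 cell barcodes occurred in both. After removal of likely doublets, 13624 and 7409 cells remained and formed 23 clusters, built without the genes listed here and named from marker genes. Although the labels call the cells macrophages, the largest class was microglia-like, with 6322 cells (46.4%) in replicate 1 and 5102 cells (68.9%) in replicate 2. Macrophage-like cells numbered 3278 and 180, monocyte-like cells 482 and 472, and neutrophil-like cells 706 and 578. The neutrophil-like class also held many microglia marker transcripts, given with its comparison below, so all its levels are those of a mixed profile. The sum over 12 microglia markers, P2ry12 and Tmem119 among them, was 5318 and 8698 CPM (UMIs of a gene scaled to a common total) in macrophage-like cells, against 49830 and 62610 CPM in microglia-like cells. The sum over 12 macrophage markers was 49190 and 34910 CPM in macrophage-like cells, against 3174 and 1680 CPM in microglia-like cells. The macrophage-like class had another make-up in each library. In replicate 1, 1938 of its cells were in a cluster led by Fabp4 and Gpnmb and 1340 in a cluster led by Cxcr4 and Ms4a7. In replicate 2 the same clusters held 28 and 152 cells. A cluster led by Arg1 and Hmox1, with 1197 and 325 cells, came closest to macrophages but held more leading markers of another list (Pf4 and Clec4n of the border-associated macrophage list), and it is called here by its leading genes.

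Levels are given as CPM of all UMIs of a class in a library, replicate 1 before replicate 2. The kit counts one end of each transcript, so levels of different genes are not ranked against each other. Free RNA, read from barcodes under 100 UMIs, held 4.91% and 4.402% of all UMIs and gives a level at which a gene can appear in cells that do not express it. A cluster is called above free RNA where its 95% exact Poisson interval lay above that of free RNA. T or NK cell-like cells (140 and 97 cells), which should lack macrophage and microglia factors, held Igf1 at 139 and 9.06 CPM, Pdgfb at 104 and 34.0 CPM, and Gdf15 at 156.5 and 65.7 CPM. Levels at or below these are read as background.

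Igf1 was highest in a microglia-like cluster led by Cst7 and Ch25h and in macrophage-like cells. It measured 293 and 199 CPM in macrophage-like cells, against 213 and 59.4 CPM in microglia-like cells and 98.2 and 14.4 CPM in monocyte-like cells. In the Cst7 and Ch25h cluster it reached 466 and 202 CPM, above free RNA at 199.8 and 49.9 CPM, whereas the microglia-like class as a whole lay close to free RNA. These class levels depend on the grouping of cells: the microglia-like mean of 136 ± 108 CPM (SD, n = 2) became 48.7 CPM at the finer and 65.6 CPM at the coarser clustering, and the monocyte-like mean of 56.3 ± 59.3 CPM became 6.95 CPM with doublets kept and 7.58 CPM with the stricter cell filter. Replicate 1 was the higher library in 15 of the 15 clusters with at least 50 cells in each library. Of all cells, 64.6% and 48.9% of macrophage-like cells had at least 1 Igf1 UMI, against 25.6% and 11.96% of microglia-like cells and 13.6% and 3.09% of T or NK cell-like cells with median depths of 7192.5 and 9818.5, 3532 and 5031.5, and 1919 and 3347 UMIs in that order. After each cell was thinned to 1000 UMIs the shares were 22.4% and 13.9% of macrophage-like cells, against 10.3% and 2.98% of microglia-like cells and 5.0% and 0% of T or NK cell-like cells. Igf1 lies at chr10:87858265-87937042 on the plus strand (GRCm38).

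Vegfa was concentrated in monocyte-like cells and in the Arg1 and Hmox1 cluster. Its level was 117 and 213 CPM in the Arg1 and Hmox1 cluster, 24.4 and 21.6 CPM in macrophage-like cells, 6.86 and 4.21 CPM in microglia-like cells, 23.6 and 39.2 CPM in neutrophil-like cells, and 153 and 253 CPM in monocyte-like cells. Free RNA held 32.6 and 45.6 CPM, so among the 15 clusters the Arg1 and Hmox1 cluster and the monocyte-like cluster were above it in both libraries. Monocyte-like cells made up 2.42% and 6.36% of all UMIs but 12.8% and 43.4% of Vegfa UMIs. The Arg1 and Hmox1 cluster made up 8.96% and 5.33% of all UMIs and 36.3% and 30.5% of Vegfa UMIs. Thinned to 1000 UMIs, 15.3% and 21.5% of cells of the Arg1 and Hmox1 cluster and 15.6% and 21.2% of monocyte-like cells held a Vegfa UMI, while 2.86% and 1.03% of T or NK cell-like cells did. The Vegfa levels of the Arg1 and Hmox1 cluster and of monocyte-like cells overlapped between libraries.

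Pdgfb had most of its UMIs in microglia-like cells, while the share of Pdgfa UMIs there was closer to the share of all UMIs. That class made up 35.3% and 62.7% of all UMIs, 72.2% and 86.5% of Pdgfb UMIs and 44.0% and 68.1% of Pdgfa UMIs. Pdgfb measured 10.95 and 27.7 CPM in macrophage-like cells, against 169 and 179.9 CPM in microglia-like cells, and 16.1 and 14.7 CPM in the Arg1 and Hmox1 cluster. Free RNA held 72.5 and 104 CPM, so both macrophage-like values and those of the Arg1 and Hmox1 cluster were below it. Its highest cluster was microglia-like and led by Egr1 and Klf2, at 312 and 285 CPM. Pdgfa varied less: 29.6 and 35.4 CPM in macrophage-like cells, 49.4 and 54.1 CPM in microglia-like cells and 35.7 and 38.8 CPM in monocyte-like cells, with free RNA at 26.0 and 35.1 CPM. Single cells weighed on Pdgfa: 1 cell of the Cst7 and Ch25h cluster in replicate 2 held 64 UMIs. An antisense gene, 6330403L08Rik, overlaps Pdgfa and was listed with 267 and 231 UMIs, and no source used here says whether the counting separated strands.

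Tgfb1 was present at similar levels in most classes. It measured 161 and 179.9 CPM in macrophage-like cells, 210.5 and 254 CPM in microglia-like cells, 196 and 172 CPM in neutrophil-like cells and 266 and 359 CPM in monocyte-like cells, with free RNA at 169 and 207 CPM. A cluster led by Ear2 and Ace, genes of patrolling monocytes, lay as high, at 284 and 357 CPM. Gdf15 had its highest level in the Arg1 and Hmox1 cluster, at 622 and 493 CPM. It measured 239.8 and 136 CPM in macrophage-like cells, against 118 and 75.5 CPM in microglia-like cells and 128 and 101 CPM in monocyte-like cells. The Arg1 and Hmox1 cluster was the only one of the 15 above the free RNA level of 162 and 126.5 CPM in both libraries. The range ran down to 9.56 and 5.41 CPM in a microglia-like cluster led by Cox6a2 and Stmn1.

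The EGF receptor ligands were scarce. Hbegf stayed at or below 3.95 and 4.08 CPM in macrophage-like, microglia-like, neutrophil-like and monocyte-like cells, with free RNA at 2.80 and 2.89 CPM. Its highest level among the 15 clusters, 10.97 and 29.6 CPM, was in cells led by collagen genes (Col3a1 and Col1a1), and 1 cell held 42 of the 52 UMIs there in replicate 2. Areg was found in 46 and 33 cells in all, and the 10 richest cells held 60.8% and 80.4% of its UMIs. In replicate 2 a single monocyte-like cell held 59 of 163 Areg UMIs. Its level was 5.52 and 10.4 CPM in the Arg1 and Hmox1 cluster, 0.243 and 0 CPM in macrophage-like cells, 0.646 and 0.213 CPM in microglia-like cells, 13.1 and 31.3 CPM in monocyte-like cells, and 19.6 and 22.7 CPM in the class of T or NK cells. The class with the highest Areg level thus differed between the libraries, and the monocyte-like value of replicate 2 rests on that single cell for 59 of its 104 UMIs. The value of 0 in 180 macrophage-like cells allows a level of up to 1.66 CPM.

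The IL-6 family members Osm and Lif shared their highest class. Osm measured 147.5 and 275.5 CPM in the Arg1 and Hmox1 cluster, 60.5 and 115 CPM in macrophage-like cells, 112 and 96.0 CPM in microglia-like cells, 177 and 263 CPM in neutrophil-like cells, and 331 and 629 CPM in monocyte-like cells. Free RNA held 88.9 and 162 CPM. With thinning, 27.2% and 38.4% of monocyte-like cells held an Osm UMI, against 2.14% and 0% of T or NK cell-like cells. Lif measured 4.25 and 6.46 CPM in the Arg1 and Hmox1 cluster, 0.527 and 0.554 CPM in macrophage-like cells, 0.610 and 0.579 CPM in microglia-like cells, 3.28 and 1.88 CPM in neutrophil-like cells, and 15.8 and 27.7 CPM in monocyte-like cells. Free RNA held 2.60 and 3.98 CPM, and the monocyte-like cluster was the only one of the 15 above it in both libraries. Osm (chr11:4236420-4241026) and Lif (chr11:4257557-4272514) are neighbours on the plus strand (GRCm38), with 16530 bases and 0 protein-coding genes between them.

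**Figure D1:**
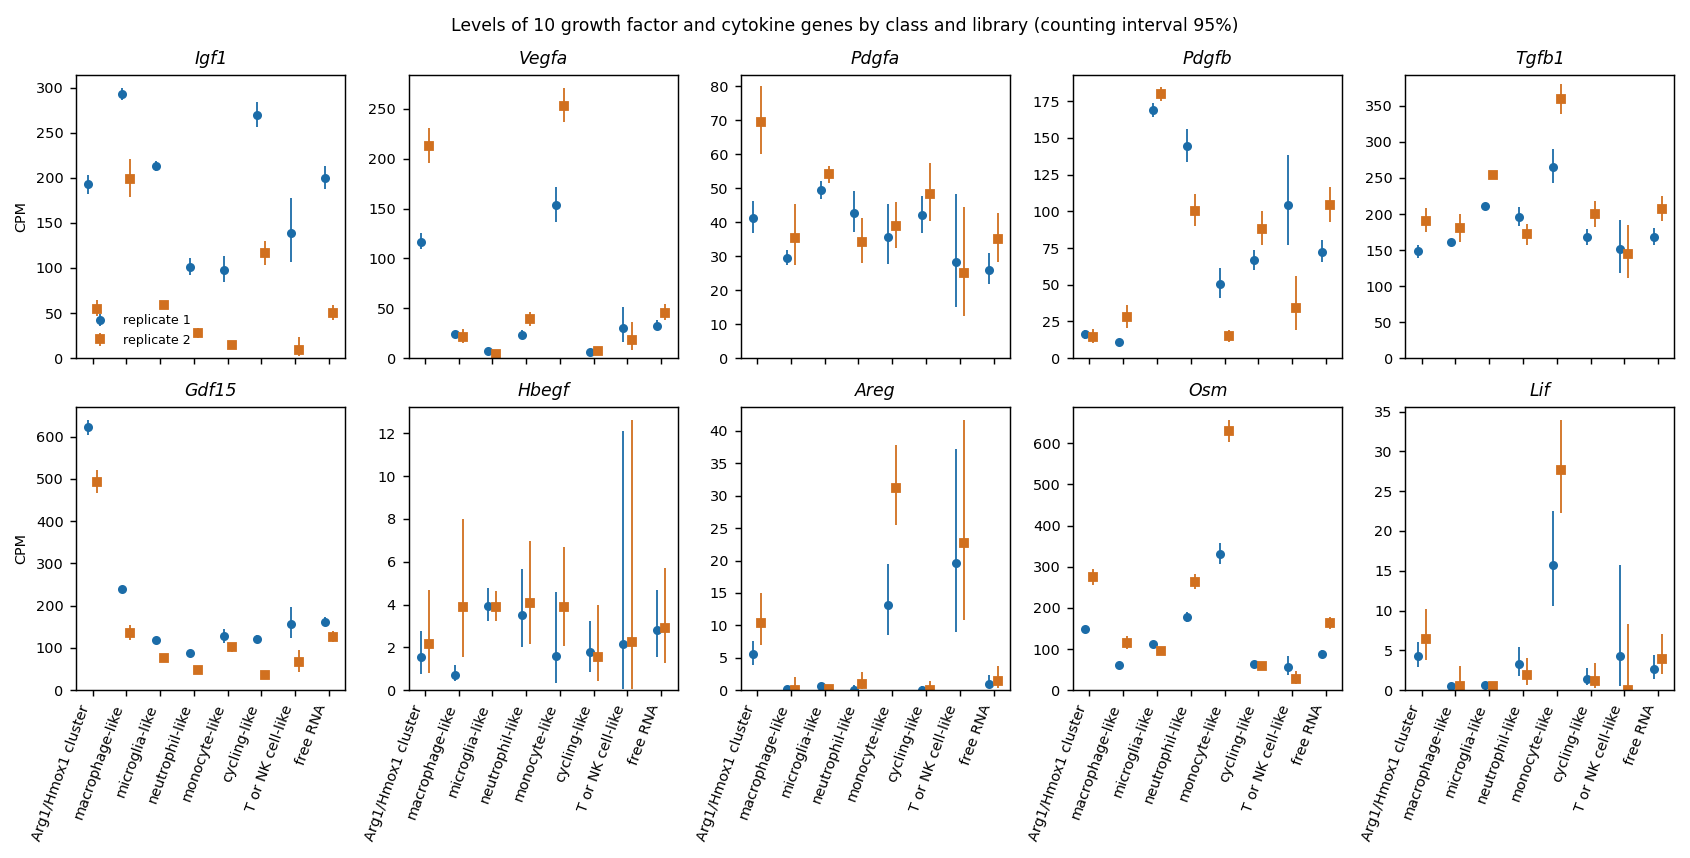
Level of each gene in CPM (y axis, from 0, one scale per gene) in the Arg1 and Hmox1 cluster, named classes and free RNA (x axis). The classes are macrophage-like, microglia-like, neutrophil-like, monocyte-like, cycling-like and T or NK cell-like. Circles are replicate 1, squares replicate 2, bars the 95% exact Poisson interval, which covers counting error only. Vegfa, Osm, Lif and Tgfb1 peak in monocyte-like cells, Gdf15 in the Arg1 and Hmox1 cluster, Pdgfb in microglia-like cells, and Igf1 is higher in replicate 1 than in replicate 2 throughout.

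Across the 15 clusters, Vegfa and Lif varied together (Pearson's r = 0.82 of log2 levels), as did Osm and Gdf15 (r = 0.73) and Lif and Areg (r = 0.71), while Vegfa and Pdgfb ran opposite (r = −0.69). These values describe 15 clusters that come from the same libraries and share free RNA, and carry no test. Among 4791 other genes, the pattern of Vegfa was most like that of Thbs1 (r = 0.943), which encodes thrombospondin-1, that of Pdgfb like Mgat4a (r = 0.977) and Cx3cr1 (r = 0.976), the fractalkine receptor of microglia, and that of Tgfb1 like Irf5 (r = 0.956), an interferon regulatory factor. Osm was most like Rab20 (r = 0.943), Lif like Dmkn (r = 0.955), Gdf15 like Rilpl2 (r = 0.866), Pdgfa like Aga (r = 0.838) and Igf1 like Gm1673 (r = 0.918). Areg was most like Dok2 (r = 0.904) and Hbegf like Cdkn1c (r = 0.945), both resting on few UMIs. Within monocyte-like cells, an Osm UMI was present in 72.1% and 89.4% of cells with a Vegfa UMI, against 49.4% and 65.6% of cells without one. The median depth of the monocyte-like cells with and without Vegfa was alike, at 2707 and 2698 UMIs in replicate 1 and 6779 and 6586 UMIs in replicate 2. The direction was not particular to that class. In the Arg1 and Hmox1 cluster the Osm shares were 53.5% and 71.5%, against 40.9% and 56.1%. In macrophage-like cells they were 44.5% and 72.2%, against 26.5% and 38.9%. In microglia-like cells they were 48.7% and 41.2%, against 29.2% and 31.0%, but there the cells with Vegfa were deeper.

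**Figure D2:**
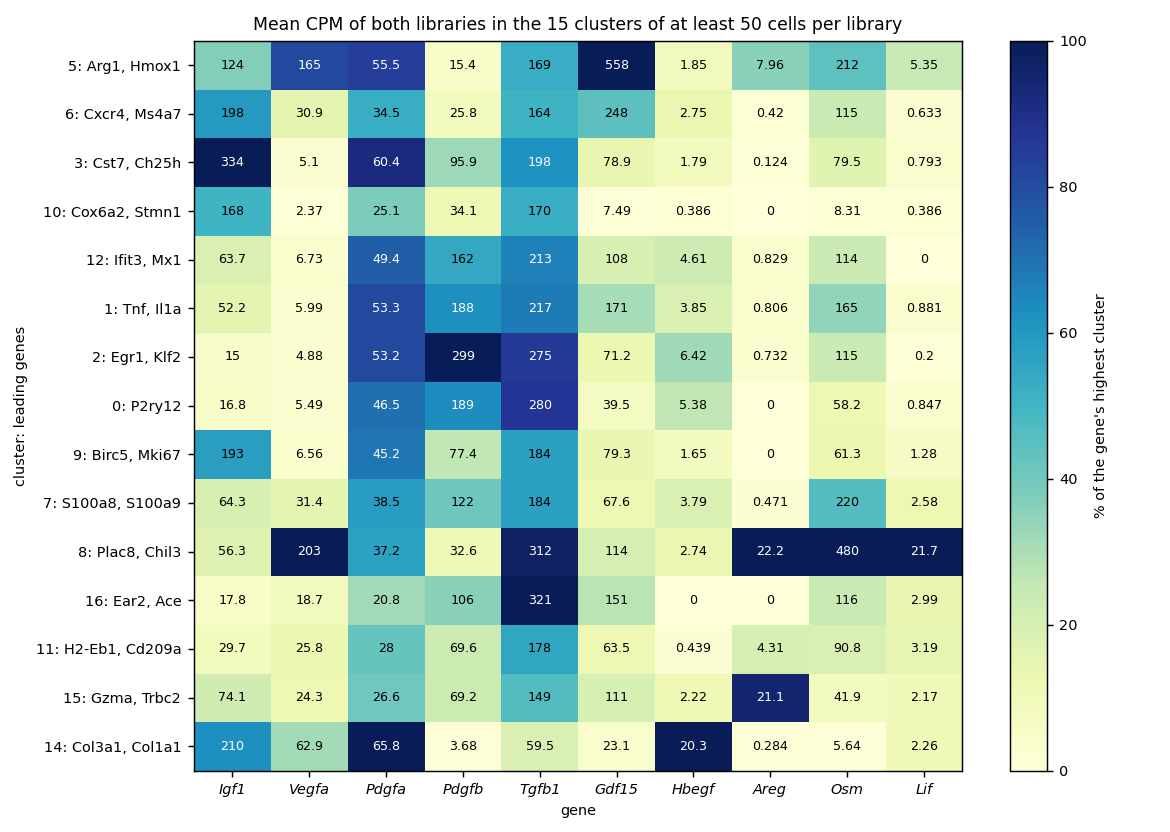
Mean CPM over both libraries of each gene (columns) in the 15 clusters with at least 50 cells per library (rows, with leading genes); colour gives the level as a percentage of the gene's highest cluster. The monocyte-like cluster (Plac8, Chil3) holds the highest level of Vegfa, Osm and Lif, the Egr1 and Klf2 cluster that of Pdgfb, and the Cst7 and Ch25h cluster that of Igf1.

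Macrophage-like cells were compared with microglia-like cells. Both names come from marker genes, and the origin of the cells was not measured. Igf1, Vegfa and Gdf15 were higher and Pdgfb lower in macrophage-like cells, and 6 genes were not called. Sums per library and class were tested with edgeR's quasi-likelihood test with the library as a block, and p-values were adjusted by Benjamini-Hochberg over 9910 genes. Of those, 16.8% were called higher and 18.5% lower (35.3% in either direction), beside 3 and 1 of the 10 factors. The genes counted leave out the variable genes used to build the clusters, whereas the listed genes were never among those and stay in. Calls among the genes left out were not counted, so these shares are not a like-for-like background. The same holds for every comparison below, where all genes means all genes counted in this way. The log2 fold change of Vegfa was 2.52 ± 0.36 (SE, 2 libraries; edgeR adjusted p = 0.000334), that is, 5.72-fold. Pdgfb had a log2 fold change of −2.98 ± 0.52 (edgeR adjusted p = 0.00109), or 7.89-fold lower (−3.46 in replicate 1 and −2.39 in replicate 2 alone), with both macrophage-like values below both microglia-like values. The log2 fold change was 1.58 ± 0.41 for Igf1 (edgeR adjusted p = 0.0119) and 1.34 ± 0.29 for Gdf15 (edgeR adjusted p = 0.00411). Within single libraries Igf1 differed by 0.93 in replicate 1 and 2.04 in replicate 2 on the log2 scale, and the macrophage-like value of replicate 2 lay below the microglia-like value of replicate 1. Without the library block the calls of Igf1 (log2 fold change 1.26, edgeR adjusted p = 0.341) and Gdf15 (1.39, edgeR adjusted p = 0.0722) were lost. Scaling to library size alone lowered all fold changes by a median of 0.433, turned the split of called genes from 1665 higher and 1835 lower to 729 and 3643, and added Pdgfa and Hbegf to the genes called lower. All 4 calls held under that scaling.

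The Vegfa difference is between low levels, both below free RNA, and Vegfa was higher in macrophage-like cells of both libraries (2.27 and 2.58 on the log2 scale). For Gdf15 the microglia-like levels, 118 and 75.5 CPM, were below free RNA at 162 and 126.5 CPM. The macrophage-like level was above free RNA in replicate 1 (239.8 CPM), but in replicate 2 (136 CPM) the Poisson intervals overlapped. Tgfb1 had a log2 fold change of −0.03 ± 0.19 and Osm of 0.07 ± 0.36, with edgeR adjusted p of 0.921 and 0.910. Areg had 6 and 0 UMIs in macrophage-like cells and 18 and 7 in microglia-like cells, and Lif had 13 and 1 UMIs in macrophage-like cells and 17 and 19 in microglia-like cells. The log2 fold change was −0.24 ± 1.05 for Areg and 0.36 ± 0.61 for Lif (edgeR adjusted p = 0.889 and 0.681). When the Arg1 and Hmox1 cluster was counted as macrophage-like, Areg (log2 fold change 3.08, edgeR adjusted p = 0.00466) and Lif (2.20, edgeR adjusted p = 0.00443) were called higher as well.

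Macrophage-like cells were next compared with monocyte-like cells, which carry markers of blood monocytes. Igf1 was higher in macrophage-like cells, with a log2 fold change of 2.74 ± 0.45 (edgeR adjusted p = 0.00294), 1.89 in replicate 1 alone and 3.73 in replicate 2 alone. Vegfa, Tgfb1, Areg, Osm and Lif were lower. The background was 5.48% of 9910 genes called higher and 7.47% lower (12.9% in either direction), beside 1 and 5 of the 10 factors. Lif showed a log2 fold change of −5.15 ± 0.52 (edgeR adjusted p = 0.000231), on 13 and 1 UMIs in macrophage-like cells and 30 and 92 UMIs in monocyte-like cells. Osm was lower by a log2 fold change of −2.41 ± 0.37 (edgeR adjusted p = 0.00225), with every macrophage-like value below every monocyte-like value. For Vegfa the log2 fold change was −2.99 ± 0.36 (edgeR adjusted p = 0.000559), and for Tgfb1 −0.79 ± 0.20 (edgeR adjusted p = 0.0242). Areg had −6.23 ± 0.82 (edgeR adjusted p = 0.00121), a value that rests on 3 and 0 macrophage-like cells and 4 and 11 monocyte-like cells with a UMI. In replicate 1 and replicate 2 alone the log2 fold changes were −2.33 and −3.57 for Vegfa, −4.25 and −5.19 for Lif, and −4.77 and −7.16 for Areg. Gdf15 (0.72 ± 0.29), Pdgfa (−0.13 ± 0.17), Pdgfb (−0.75 ± 0.54) and Hbegf (−1.13 ± 0.67) were not called.

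These calls depend on where the Arg1 and Hmox1 cells are placed. With that cluster counted as macrophage-like, Vegfa had a log2 fold change of −1.27 (edgeR adjusted p = 0.0629), and with cells assigned one by one from their markers it had −0.90 (edgeR adjusted p = 0.240), and Areg −1.42 (edgeR adjusted p = 0.524). At a coarser clustering, which merged the Arg1 and Hmox1 cells into the monocyte-like class, Tgfb1 was not called (−0.27, edgeR adjusted p = 0.511), nor was it with only the classes compared in the fit (−0.74, edgeR adjusted p = 0.120). Igf1 was not called without the library block (2.32, edgeR adjusted p = 0.165). Osm and Lif were called lower in each of the 12 alternatives with a test. Under scaling to library size alone the whole-table split was 310 higher and 880 lower, beside 543 and 740.

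The Arg1 and Hmox1 cluster was therefore set against macrophage-like cells in a comparison added after its values had been seen. Vegfa, Areg, Gdf15 and Lif were higher in the Arg1 and Hmox1 cluster. Of 9959 genes, 1.63% were called higher and 1.97% lower (3.59% in either direction), beside 4 and 0 of the factors. The log2 fold change was 2.51 ± 0.36 for Vegfa (edgeR adjusted p = 0.00528), 2.90 ± 0.53 for Lif (edgeR adjusted p = 0.0123), 1.44 ± 0.29 for Gdf15 (edgeR adjusted p = 0.0192) and 4.51 ± 0.80 for Areg (edgeR adjusted p = 0.0123). In replicate 1 and replicate 2 alone it was 1.98 and 3.22 for Vegfa and 3.56 and 5.40 for Areg. For each of these 4 genes, both values in the cluster lay above both macrophage-like values. Igf1 (log2 fold change −1.48 ± 0.39, edgeR adjusted p = 0.0553) and Osm (1.10 ± 0.35, edgeR adjusted p = 0.104) missed the threshold, and each passed it in 3 of 7 alternatives. Gdf15 lost its call without the library block (1.35, edgeR adjusted p = 0.238). While edgeR called 0 factors lower, 1 (Igf1) had an unadjusted value under 0.05, and the DESeq2 Wald test called 1 lower, also Igf1. Under library size alone the whole-table split was 533 higher and 77 lower, beside 162 and 196.

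**Figure D3:**
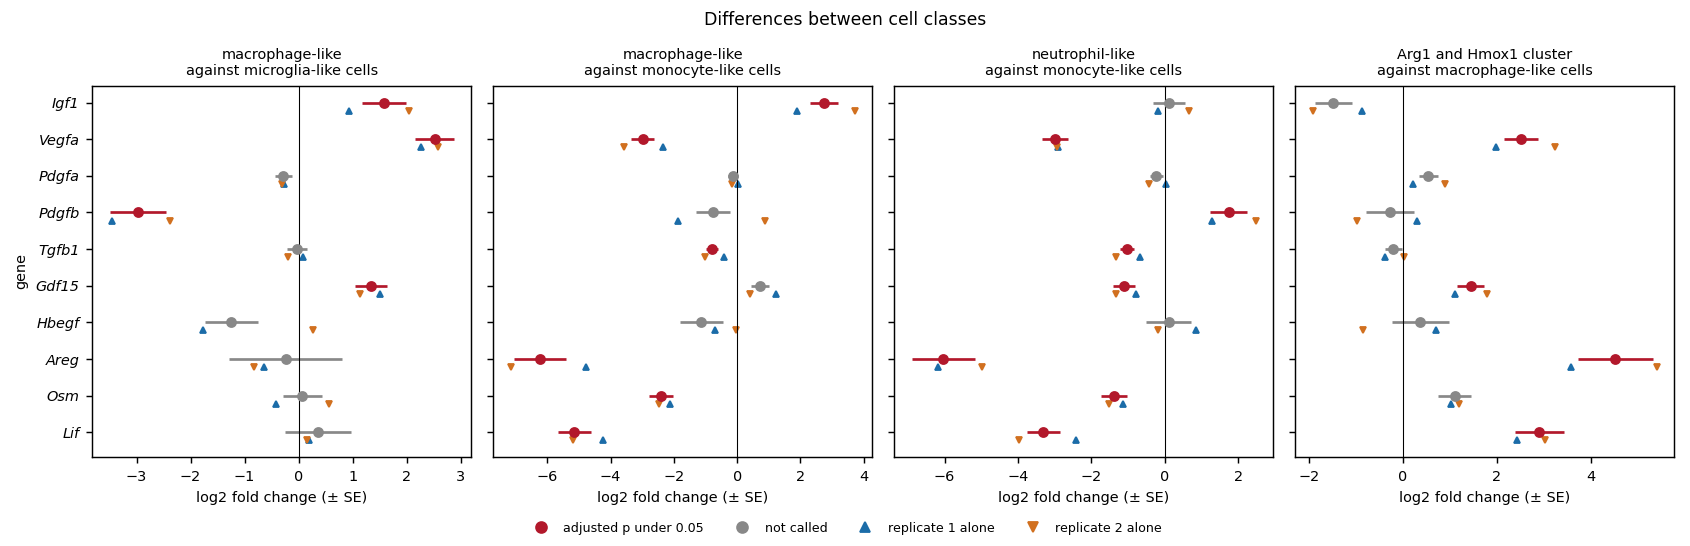
Log2 fold change (x axis) of each gene (rows) in 4 comparisons of cell classes; circles with bars are the edgeR estimate ± SE, red where the adjusted p is under 0.05, and triangles are single libraries. Vegfa is higher in macrophage-like than in microglia-like cells but lower than in monocyte-like cells, and Pdgfb shows its largest difference, −2.98, against microglia-like cells.

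Because the classes share libraries and the macrophage-like sums enter 3 of these comparisons, the fold changes are not independent of each other. Neutrophil-like cells were also set against monocyte-like cells. Pdgfb was higher in neutrophil-like cells (log2 fold change 1.74 ± 0.50, edgeR adjusted p = 0.0275), and Vegfa, Areg, Osm, Lif, Tgfb1 and Gdf15 were lower. The Pdgfb level was 144.6 and 100.4 CPM in neutrophil-like cells, against 50.4 and 14.7 CPM in monocyte-like cells. Free RNA held 72.5 and 104 CPM of Pdgfb, so the neutrophil-like value of replicate 2 was not above it. Gdf15 measured 86.9 and 48.3 CPM in neutrophil-like cells and 128 and 101 CPM in monocyte-like cells. All these Gdf15 values were below free RNA at 162 and 126.5 CPM. The background was 10.2% higher and 12.6% lower (22.8% in either direction), beside 1 and 6 of the 10 factors. For Vegfa the log2 fold change was −2.99 ± 0.36 (edgeR adjusted p = 0.000873), for Lif −3.31 ± 0.45 (edgeR adjusted p = 0.00123) and for Osm −1.39 ± 0.36 (edgeR adjusted p = 0.0184). In replicate 1 and replicate 2 alone the values were −2.42 and −3.96 for Lif and 1.28 and 2.49 for Pdgfb, and −6.17 and −4.97 for Areg. Microglia markers were present in the neutrophil-like cluster. Their sum was 41060 and 31300 CPM there, against 12720 and 6239 CPM in monocyte-like cells, and all 12 were at 50 CPM or more. In microglia-like cells it was 49830 and 62610 CPM. The sum over 12 neutrophil markers in the neutrophil-like cluster was 33210 and 82790 CPM. In replicate 1 the cluster thus held more microglia than neutrophil marker transcripts. Free RNA held 20280 and 40840 CPM of the microglia markers. Their sum in the cluster was thus above free RNA in replicate 1 and below it in replicate 2. Whether these transcripts came from free RNA or from microglia in the cluster was not tested. The part of these microglia transcripts in the Pdgfb difference, and in the 6 lower calls, was not tested. The Pdgfb call was lost with the stricter cell filter (edgeR adjusted p = 0.0848), the Tgfb1 (−0.55, edgeR adjusted p = 0.0637) and Osm (−0.75, edgeR adjusted p = 0.121) calls with coarser clustering, and the Gdf15 call without the library block (−1.02, edgeR adjusted p = 0.215) and with doublets kept (−0.80, edgeR adjusted p = 0.0502). Library size alone gave 1730 genes higher and 688 lower, beside 1007 and 1248.

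The 6 microglia-like clusters differed from each other in Igf1, Pdgfa, Pdgfb, Hbegf, Gdf15 and Osm. In edgeR's F test over the clusters, 6 of the 8 factors tested were called, against 58.4% of 10232 genes, a share to read against that background; Areg and Lif had too few UMIs to enter. Igf1 and Pdgfb themselves were among the 10 leading genes of a cluster each, although no listed gene was used to build the clusters, and the cells clustered are the cells tested. Igf1 had the widest range, 4.77 on the log2 scale between its highest and lowest cluster (edgeR adjusted p = 5.24e-15). It measured 466 and 202 CPM in the Cst7 and Ch25h cluster, whose genes mark microglia that respond to damage, and 20.6 and 9.44 CPM in the Egr1 and Klf2 cluster. Between these 2 clusters Pdgfb ran the other way, at 94.2 and 97.6 CPM in the Cst7 and Ch25h cluster and 312 and 285 CPM in the Egr1 and Klf2 cluster. Neither gene's values overlapped between them. The Pdgfb range of 2.55 (edgeR adjusted p = 1.23e-11) reaches further down, to the Cox6a2 and Stmn1 cluster. That cluster made up 0.796% and 2.47% of all UMIs but 0.323% and 0.660% of Pdgfb UMIs. It held 0.713% and 5.42% of Igf1 UMIs, so the Cst7 and Ch25h cluster was not alone in pairing low Pdgfb with Igf1. Thinned to 1000 UMIs, 27.7% and 12.4% of cells in the Cst7 and Ch25h cluster held an Igf1 UMI, against 1.70% and 0.500% in the Egr1 and Klf2 cluster.

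Osm and Gdf15 were highest in the microglia-like cluster led by the cytokine genes Tnf and Il1a, at 163 and 167 CPM for Osm and 176.5 and 165.5 CPM for Gdf15. In that cluster the Osm values were close to the free RNA level in replicate 2. Both genes were lowest in the Cox6a2 and Stmn1 cluster, and their ranges were 4.27 (Osm, edgeR adjusted p = 5.36e-12) and 4.31 (Gdf15, edgeR adjusted p = 2.03e-11). Tgfb1 and Vegfa were not called, with ranges of 0.18 and 1.21 and edgeR adjusted p of 0.494 and 0.611. Tgfb1 was called under library size alone (range 0.74, edgeR adjusted p = 2.42e-05), and Hbegf missed the threshold without the library block (edgeR adjusted p = 0.0512). The macrophage-like clusters were not tested against each other, since the Fabp4 and Gpnmb cluster, with 28 cells in replicate 2, was under the minimum of 50 cells used here. There Igf1 measured 318 and 322 CPM, against 231 and 165 CPM in the Cxcr4 and Ms4a7 cluster.

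**Figure D4:**
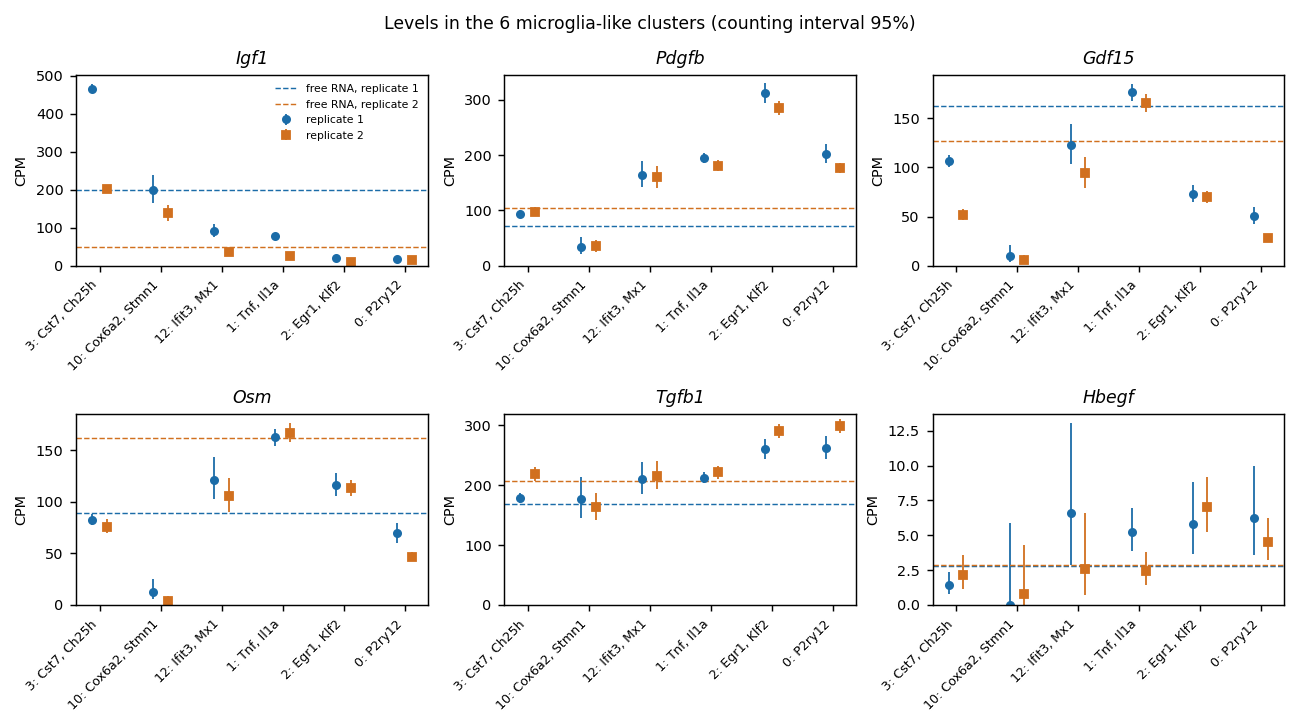
Level in CPM (y axis, from 0) of 6 genes in the 6 microglia-like clusters (x axis, with leading genes); circles are replicate 1, squares replicate 2, bars the 95% exact Poisson interval and dashed lines the free RNA level of each library. Igf1 is highest in the Cst7 and Ch25h cluster, Pdgfb in the Egr1 and Klf2 cluster, and Gdf15 and Osm in the Tnf and Il1a cluster.

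Of 17 receptor genes of the factors, 9 had enough UMIs to test in macrophage-like against microglia-like cells. Of these 1 was higher, 6 were lower and 2 were not called, beside 16.8% of all genes higher and 18.5% lower, with a median log2 fold change of −1.04 beside −0.01 over all genes. Nrp1, a co-receptor of VEGF, was higher in macrophage-like cells, at 95.3 and 108 CPM, against 64.0 and 57.6 CPM in microglia-like cells (log2 fold change 1.14 ± 0.24, edgeR adjusted p = 0.0036). Lifr, the LIF receptor, measured 1.62 and 4.43 CPM in macrophage-like cells, against 27.8 and 30.05 CPM in microglia-like cells (−3.45 ± 0.40, edgeR adjusted p = 7.65e-05). Igf1r, the IGF1 receptor, measured 4.50 and 3.87 CPM, against 26.6 and 24.0 CPM (−2.07 ± 0.34, edgeR adjusted p = 0.000708). Il6st, which encodes gp130, Tgfbr1, Tgfbr2 and Insr were the other genes called lower. Pdgfra, Pdgfrb, Tgfbr3, Egfr, Erbb2, Erbb4, Osmr and Gfral could not be tested. None exceeded 0.122 CPM in microglia-like cells of either library or macrophage-like cells of replicate 1, and all 8 had 0 UMIs in the 180 macrophage-like cells of replicate 2, which allows up to 1.66 CPM each. Against monocyte-like cells, 1 of the 9 was higher (Nrp1, 1.55 ± 0.26, edgeR adjusted p = 0.00332) and 1 lower (Kdr, the main VEGF receptor, −2.23 ± 0.50, edgeR adjusted p = 0.0145), beside 5.48% and 7.47% of all genes. The Kdr call was lost with coarser clustering and with cells assigned by markers.

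Related ligands followed several patterns. Of 22 such genes 6 were tested, and in macrophage-like against microglia-like cells 1 was higher, 3 were lower and 2 were not called, beside 16.8% and 18.5% of all genes. Tgfa, a further EGF receptor ligand, measured 0.811 and 2.21 CPM in macrophage-like cells, against 42.1 and 35.2 CPM in microglia-like cells (log2 fold change −5.00 ± 0.40, edgeR adjusted p = 1.49e-05). Gdf3, a TGF-β family ligand, measured 32.8 and 17.7 CPM in macrophage-like cells, against 1.005 and 0.305 CPM in microglia-like cells (5.70 ± 0.34, edgeR adjusted p = 3.4e-06). Il6 had 0 UMIs in macrophage-like cells of both libraries, which allows up to 0.122 and 1.66 CPM, against 4.42 and 8.20 CPM in microglia-like cells and 11.03 and 10.5 CPM in monocyte-like cells. Clcf1, an IL-6 family cytokine, was the third gene called lower. Against monocyte-like cells, 2 were higher, among them Vegfb (1.86 ± 0.30, edgeR adjusted p = 0.00275), and 4 (Inhba, Tgfa, Il6 and Clcf1) were lower, beside 5.48% and 7.47% of all genes. All 4 lower calls were lost with cells assigned by markers, and Tgfa also lost its call and turned sign with doublets kept. Gdf3 and Tgfa lost their calls without the library block.

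Genes that release, activate or bind the factors were tested in 11 of 18 cases, and 4 were higher and 1 lower in macrophage-like than in microglia-like cells, beside 16.8% and 18.5% of all genes. Thbs1, which activates latent TGF-β1, measured 303 and 266 CPM in macrophage-like cells, against 25.2 and 6.80 CPM in microglia-like cells (log2 fold change 4.79 ± 0.84, edgeR adjusted p = 0.00114) and 2345 and 2579 CPM in monocyte-like cells. Ltbp3, a latent TGF-β binding protein, was higher at low levels (2.96 ± 0.41, edgeR adjusted p = 0.000367), and the sheddase Adam10 was lower (−0.77 ± 0.18, edgeR adjusted p = 0.00639), a call lost without the library block. Adam17, the main sheddase of HB-EGF and amphiregulin, had 0.04 ± 0.21. Against monocyte-like cells 9 were not called and 2 were lower (7.47% of all genes were), Thbs1 (−3.13 ± 0.77, edgeR adjusted p = 0.0231) and Rhbdf2, and both calls were lost without the library block.

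Of 22 genes known to respond to the factors or to regulate them, 19 were tested in macrophage-like against microglia-like cells, and 3 were higher and 11 lower, beside 16.8% and 18.5% of all genes. Socs3, a feedback inhibitor of IL-6 family signalling, measured 32.7 and 93.0 CPM in macrophage-like cells, against 367 and 490.3 CPM in microglia-like cells (log2 fold change −2.51 ± 0.31, edgeR adjusted p = 0.000109). Smad7, the feedback inhibitor of TGF-β signalling, was lower as well (−2.43 ± 0.31, edgeR adjusted p = 0.000144). Epas1, which encodes the low-oxygen factor HIF-2α, was higher (5.93 ± 0.39, edgeR adjusted p = 4.72e-06) at 15.7 and 4.43 CPM, against 0.287 and 0.122 CPM. The growth factor feedback inhibitor Spry2 was higher (5.20 ± 0.68, edgeR adjusted p = 0.000165) and its relative Spry1 lower (−3.17 ± 0.47, edgeR adjusted p = 0.000398). Counting the Arg1 and Hmox1 cluster as macrophage-like changed the counts to 5 higher and 5 lower, and turned the sign of Hif1a, Bnip3, Slc2a1 and Egln3. Assigning cells by markers gave 5 higher and 6 lower and turned the sign of Hif1a, Bnip3 and Egln3.

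In the Arg1 and Hmox1 cluster, 9 of the 20 tested genes of that list were higher and 2 lower than in macrophage-like cells. Beside them stand 1.63% and 1.97% of 9959 genes, which leave out the variable genes used for clustering. Without the library block 7 were higher and both lower calls were lost, beside 59 higher and 34 lower among all genes. The list mixes genes of several pathways, has no sub-lists and was not chosen independently of earlier results on these cells. Among the higher genes were Trib3 (log2 fold change 4.16 ± 0.45, edgeR adjusted p = 0.00067), Asns, which encodes asparagine synthetase (3.95 ± 0.44, edgeR adjusted p = 0.000789), Egln3 (3.13 ± 0.51, edgeR adjusted p = 0.0077), Slc2a1, the glucose transporter GLUT1 (2.12 ± 0.26, edgeR adjusted p = 0.00139), Bnip3 (1.85 ± 0.17, edgeR adjusted p = 0.000652), Hif1a, Ddit3 and Atf4. The 2 lower genes were Epas1, at 4.53 and 2.15 CPM in the Arg1 and Hmox1 cluster, against 15.7 and 4.43 CPM in macrophage-like cells (−1.86 ± 0.33, edgeR adjusted p = 0.0102), and Dusp6, a phosphatase that limits MAP kinase signalling (−0.77 ± 0.18, edgeR adjusted p = 0.0371). Epas1, Atf4 and Dusp6 lost their calls without the library block, Epas1 also against the Cxcr4 and Ms4a7 cluster alone and Dusp6 also under library size alone.

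Against monocyte-like cells, 1 of 19 tested genes of the list was higher in macrophage-like cells (Epas1) and 7 were lower, beside 5.48% and 7.47% of all genes. Hif1a had a log2 fold change of −2.26 ± 0.24 (edgeR adjusted p = 0.000267), Bnip3 of −1.95 ± 0.18 and Slc2a1 of −2.45 ± 0.29 (edgeR adjusted p = 0.000221 and 0.000445). With cells assigned by markers the calls of Epas1, Bnip3, Egln3, Atf4 and Asns were lost and Bnip3 turned sign. Atf4 also lost its call without the library block.

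Other repair factors were tested in 7 of 12 cases, and 4 were higher and 1 lower in macrophage-like than in microglia-like cells, beside 16.8% and 18.5% of all genes. Ecm1, a secreted matrix protein, measured 153 and 133 CPM in macrophage-like cells, against 17.3 and 5.64 CPM in microglia-like cells (log2 fold change 4.17 ± 0.51, edgeR adjusted p = 0.000114). Hgf, the hepatocyte growth factor, measured 17.0 and 17.2 CPM, against 2.91 and 1.95 CPM (3.18 ± 0.37, edgeR adjusted p = 8.39e-05). The anti-inflammatory cytokine Il10 was higher at low levels (3.35 ± 0.37, edgeR adjusted p = 5.62e-05). Csf1, the growth factor that phagocytes depend on, measured 7.79 and 4.43 CPM, against 112 and 83.7 CPM (−3.47 ± 0.52, edgeR adjusted p = 0.000421), and was also lower than in monocyte-like cells (−1.93 ± 0.55, edgeR adjusted p = 0.0398), a call lost without the library block, with the Arg1 and Hmox1 cluster counted as macrophage-like, and with cells assigned by markers, where Csf1 turned sign. Bdnf and Gdnf, neurotrophic factors, had 0 UMIs in macrophage-like and microglia-like cells, which allows up to 0.122 and 1.66 CPM in macrophage-like and 0.108 and 0.0914 CPM in microglia-like cells.

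**Figure D5:**
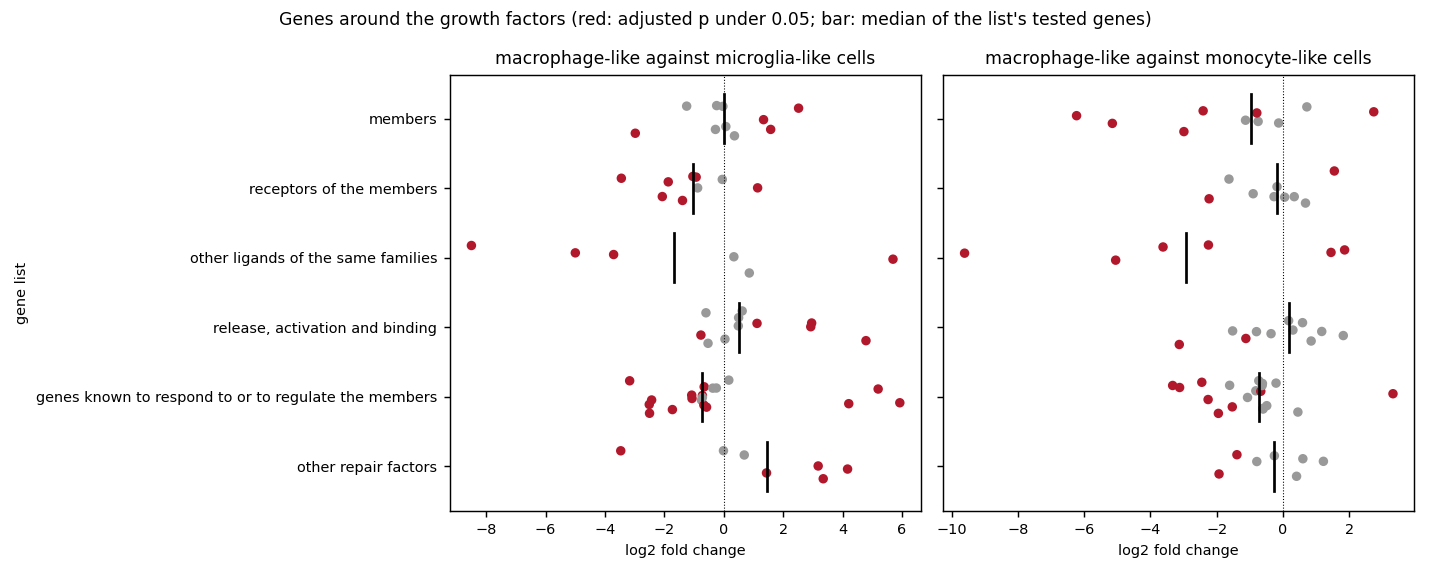
Log2 fold change (x axis) of the tested genes of each list (rows; points spread vertically at random) in macrophage-like against microglia-like and against monocyte-like cells; red points have an edgeR adjusted p under 0.05 and bars are the median of the list. In the left panel the 9 tested receptors lie mostly below 0, with a median of −1.04, and other repair factors above it, with a median of 1.44.

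Vegfa, Lif and Areg were called higher in the Arg1 and Hmox1 cluster than in macrophage-like cells and lower in macrophage-like than in monocyte-like cells, and their promoters are shown for that reason. The sequences are the 250 bases before the RefSeq start of transcription (GRCm38.p6), searched on both strands for the core of the low-oxygen element (ACGTG), the AP-1 site (TGANTCA), the CRE core of cyclic AMP response factors (TGACG) and the antioxidant element (TGACNNNGC). Capitals mark matches, which may overlap. The windows lie at chr17:46032378-46032627 (minus strand) for Vegfa, chr11:4257318-4257567 (plus strand, the last 11 bases within an annotated exon) for Lif and chr5:91139349-91139598 (plus strand) for Areg.
Vegfa: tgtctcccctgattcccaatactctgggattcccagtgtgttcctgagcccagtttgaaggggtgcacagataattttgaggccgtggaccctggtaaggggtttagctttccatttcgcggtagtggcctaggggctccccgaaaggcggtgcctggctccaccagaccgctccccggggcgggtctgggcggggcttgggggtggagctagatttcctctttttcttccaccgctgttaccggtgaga
Lif: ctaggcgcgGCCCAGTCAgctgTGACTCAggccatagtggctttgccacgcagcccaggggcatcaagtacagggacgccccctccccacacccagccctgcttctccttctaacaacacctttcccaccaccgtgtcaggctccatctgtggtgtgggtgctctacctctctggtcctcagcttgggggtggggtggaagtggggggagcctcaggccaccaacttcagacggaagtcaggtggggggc
Areg: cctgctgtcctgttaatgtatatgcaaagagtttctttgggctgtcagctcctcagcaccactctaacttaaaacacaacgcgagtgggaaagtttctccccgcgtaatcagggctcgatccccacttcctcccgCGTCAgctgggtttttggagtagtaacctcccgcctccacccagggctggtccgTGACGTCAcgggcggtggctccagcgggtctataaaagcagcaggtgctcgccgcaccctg
The Vegfa window held none of the 4 motifs, while the window of its second RefSeq start, of which 218 bases are exonic, held 1 low-oxygen core and 1 CRE core. The Lif window held an AP-1 site and an antioxidant element, starting at −228 and −241 from the start of transcription, and the Areg window held CRE cores at −115, −61 and −58, of which the last 2 overlap in a palindrome. Of 32851 promoter windows of this length, 16.6% held the low-oxygen core, 6.75% the AP-1 site, 17.8% the CRE core and 10.2% the antioxidant element. No motif was common to these 3 windows.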

How the data were processed

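For each library the authors deposited a matrix of raw counts (UMIs of a gene in a barcode). Per the file headers the matrices come from Cell Ranger. Per the submitters' processing notes the tools were Cell Ranger 4.0.0, STAR 2.5.1b and Seurat 4. Those notes name the builds GRCm38, mm10 and GRCh38 without their roles, and 99.6% of the gene IDs were found in GENCODE vM21 (GRCm38). The 10 genes, the gene lists and the tests were chosen with earlier results of these data known, so no list is independent support. The labels put both libraries in the same group.

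Doublets were scored per library with Scrublet through scanpy 1.11.5. It marked 1426 cells (9.48%) of replicate 1 and 0 of replicate 2, where the 501 top-scoring cells (6.33%) were removed instead. Cells were scaled to 10000 counts, and 2000 variable genes without the listed genes gave 30 principal components, 15 neighbours and Leiden clusters at resolution 0.8. A cluster took the name of the marker list with the most genes among its 10 leading genes (at least 3) or else of the list with the largest share detected. It stayed without a name under 100 cells, with fewer than 3 markers detected, where another list had more leading genes, or with no leading marker and no majority of the list detected. Levels are CPM of summed UMIs, with 95% exact Poisson intervals that cover counting error only, and a UMI count of 0 was read as up to 3 UMIs. Shares of cells were also taken after thinning each cell to 1000 UMIs.

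Counts summed by class within each library (at least 50 cells per library) went into edgeR 4.0.16 under R 4.3.3 (TMM, filterByExpr, glmQLFit, glmQLFTest, library as block), with Benjamini-Hochberg adjustment over genes not used for clustering and a threshold of 0.05. All named classes shared the fit. Both sides of a comparison come from the same libraries, which is the source of the pairing. Over 4884 genes, the deviations of same-numbered sums had a correlation of 0.317 for macrophage-like with microglia-like sums, 0.187 for macrophage-like with monocyte-like sums and 0.364 for neutrophil-like with monocyte-like sums. SEs were taken from the fold change and its F statistic. Further alternatives used DESeq2 1.42.0, RLE or library-size scaling, no count filter, other resolutions, other cell filters and cells assigned by markers. All 10 genes are described. From each other list the text names the 2 called genes highest and the 2 lowest in log2 fold change in the first comparison and 1 and 1 in the second, where both libraries had that sign, and further genes chosen after their values were seen. Likeness used Pearson's r of log2(CPM + 10) over genes at 50 CPM or more in some cluster. The fitting was tested on simulated data.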

Additional observations from a re-analysis of the deposited data

How the results depend on the processing

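Of the fold changes of the 10 factors under the alternatives, 452 were counted as kept. Where there was a test, these kept their direction and their side of the threshold. Values of single libraries, which have no test, counted as kept within the spread that the SE gives for a single library, and 25 lay outside it. The ranges among microglia-like clusters have no SE and no sign, so their single-library values all counted as kept. Another 15 values lost a call, 19 gained one and 26 turned sign, all 26 in factors that had no call in the fit reported. In single libraries a turn of sign was counted only for called factors. Turns of uncalled factors there, such as Hbegf in macrophage-like against microglia-like cells (−1.25, but 0.27 in replicate 2 alone), are not among the 26. Of the mean levels per class, 183 moved by less than the SD between libraries and 47 by more. List genes whose calls were lost or turned sign are named beside the results. In macrophage-like against microglia-like cells, library size alone called 729 genes higher and 3643 lower, and 3 factors lower. There 1 factor was called higher without the library block, 5 with cells assigned by markers and 5 with the Arg1 and Hmox1 cluster counted as macrophage-like. Factors called lower numbered 2 without a count filter, 2 with doublets kept and 2 with that cluster counted. Pdgfa turned to 0.01 at resolution 0.4 and 0.05 with that cluster, and Areg to 0.12, to 3.08 with that cluster and to 2.30 by markers. Osm turned to −0.33 under library size, −0.19 at resolution 0.4, −0.00064 with doublets kept and −0.07 with 2000 UMIs and 5% mitochondrial UMIs, and Lif to −0.12 under library size. In macrophage-like against monocyte-like cells, genes called higher numbered 310 under library size, 824 without a count filter, 254 without the library block, 306 with only the classes compared, 332 at resolution 0.4, 1468 with doublets kept, 830 with the stricter cell filter and 340 by markers. Genes called lower numbered 420 with only the classes compared, 383 at resolution 0.4, 1540 with doublets kept and 248 by markers. Factors called higher numbered 2 without a count filter, 0 without the block, 2 by markers and 2 with the Arg1 and Hmox1 cluster, and 3 were lower by markers. In edgeR without the block, 1 factor (Igf1) was higher at an unadjusted value under 0.05, and the DESeq2 Wald test called 1 higher. Pdgfa turned to 0.02 at both other resolutions, 0.39 with doublets kept, 0.18 with the stricter filter, 0.51 by markers and 0.20 with that cluster. Pdgfb turned to 0.50 with doublets kept and 1.80 by markers, Hbegf to 0.42 by markers and Gdf15 to −0.80 at resolution 0.4. In neutrophil-like against monocyte-like cells, genes called higher numbered 1730 under library size, 1683 at resolution 0.4 and 1713 with doublets kept (2 factors), and lower 688 under library size, 817 without the block, 1998 with doublets kept and 791 with the stricter filter. Igf1 turned to −0.01 without the block and −0.75 at resolution 0.4, and Pdgfa to 0.06 under library size, 0.12 with doublets kept and 0.13 with the stricter filter. In the Arg1 and Hmox1 cluster against macrophage-like cells, genes called higher and lower numbered 533 and 77 under library size, 353 and 451 without a count filter, 59 and 34 without the block, 257 and 347 in DESeq2, 418 and 503 with only the classes compared, and 486 and 542 against the Cxcr4 and Ms4a7 cluster alone. There 1 factor was lower without a count filter, 1 in DESeq2 and 1 with only the classes compared, and Hbegf turned to −0.32 against the Cxcr4 and Ms4a7 cluster. Without the library block 3914 genes differed among microglia-like clusters. The calls of factors that changed without the library block are those given beside the results. The cause of these shifts was not tested.

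The choices added after seeing the data are library size alone, the Arg1 and Hmox1 comparison and its settings, and counting that cluster as macrophage-like. Leaving out either library gives fold changes with no test, since no residual degrees of freedom remain. Not run were the test among macrophage-like clusters, where the Fabp4 and Gpnmb cluster has 28 cells in replicate 2 and the minimum used here is 50, and the neutrophil comparison with cells assigned by markers. Depth limits Areg, Lif and Hbegf most, with 107 to 233 UMIs per library, and 180 macrophage-like cells limit every value of replicate 2 in that class.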

Other observations

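Levels in several clusters outside the comparisons are given here, and not all lay above free RNA. The cluster led by collagen genes, with 152 and 94 cells, held Igf1 at 261 and 158.5 CPM and Vegfa at 63.3 and 62.5 CPM, with free RNA at 199.8 and 49.9 CPM for Igf1 and 32.6 and 45.6 CPM for Vegfa, and Pdgfb at 3.38 and 3.98 CPM. A cluster led by Xist, Mrc1 and Marco, with 241 and 19 cells, was named border-associated macrophage-like, with 1 marker of that list among its 10 leading genes. It held Tgfb1 at 223 and 194 CPM and Igf1 at 126 and 105 CPM, while Osm (18.4 and 9.58 CPM) and Pdgfa (5.87 and 2.40 CPM) were low. Free RNA held 169 and 207 CPM of Tgfb1 and 199.8 and 49.9 CPM of Igf1. Tgfb1 was thus above it only in replicate 1 and Igf1 only in replicate 2. In a cluster led by H2-Eb1 and Cd209a, with 269 and 221 cells, Pdgfb measured 74.8 and 64.5 CPM and Areg 4.67 and 3.95 CPM, and 1 cell held all 9 Areg UMIs there in replicate 2. Free RNA held 72.5 and 104 CPM of Pdgfb and 0.999 and 1.45 CPM of Areg, so Pdgfb was not above it there. Cycling-like cells, with 587 and 186 cells, held Igf1 at 269.9 and 116 CPM, above free RNA in both libraries.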
